A study of Bos taurus with 33 samples.

Results

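The transcripts described here are those of the ubiquitin-specific proteases of cattle, measured in oocytes and in the cumulus cells (CC) that enclose them. A transcript was taken as a member when the deposited gene symbol began with USP followed by a digit, and the oocyte and CC tables were joined by Ensembl identifier. The rule found 48 genes among the 17543 listed in either table. All 48 were listed in the oocyte table and 47 in the CC table, where USP18 (ENSBTAG00000016661) carried no symbol and was found by its identifier, and USP26 was listed in oocytes only. A single identifier, ENSBTAG00000006242, was named USP9X in one table and USP9Y in the other, and is written USP9X/USP9Y. The symbol rule also brought in USP6NL, whose product is a GTPase-activating protein of Rab proteins and not a protease.

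Ubiquitin is a small protein that cells attach to other proteins to mark them for the proteasome, for endocytosis, for DNA repair or for a change in chromatin. Ubiquitin-specific proteases form the largest family of the enzymes that take it off again, and each acts on its own range of substrates through a shared catalytic domain. An oocyte near ovulation makes little new RNA and lives on transcripts stored during its growth, whereas CC still transcribe actively and respond to the gonadotropin surge.

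Each library was made from 4 pooled oocytes or from the pooled CC of 4 complexes, aspirated from the dominant follicle of adult, suckled postpartum beef cows of Hereford-Angus cross. Follicle growth was synchronized in all cows with gonadotropin releasing hormone (GnRH) and prostaglandin F2 alpha. Cows that showed no estrus received a second GnRH injection, which induced the surge, and their follicles were classed as small (11.7 mm or less) or large (12.7 mm or more). Cows of the spontaneous classification showed estrus, had their own surge and received no second injection, with follicles of 11.7 to 14 mm. There were 6 small, 6 large and 4 spontaneous oocyte pools, and 6 small, 6 large and 5 spontaneous CC pools, so size class and the origin of the surge cannot be told apart where spontaneous pools are compared with the others. Per the study, oocytes and CC were pooled from matching complexes, but the labels do not say which oocyte pool matches which CC pool, or which cows went into a pool. The tests treat pools as independent, so the p-values measure the spread between pools.

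Values are reads of a gene per 1000000 reads on all genes (CPM). Libraries held 7664375 to 17934916 reads in oocytes and 1911600 to 5772431 in CC. A count of 0 allows up to 3 reads, which is 0.391 CPM or less in oocyte libraries and 1.57 CPM or less in CC libraries. These limits cover counting error only. Oocyte markers took 8632 to 12758 CPM of the oocyte libraries and at most 6.76 CPM of the CC libraries. Cumulus markers took 12927 to 33246 CPM of the CC libraries and 509 to 4012 CPM of the oocyte libraries, with the highest oocyte value in small replicate 3. VCAN made up most of the CC sum (8357 to 28109 CPM), and 2 of the 8 cumulus markers retained in both tables were higher in oocytes, among them HAS2 at 132 to 248 CPM in oocytes and 19.4 to 176 CPM in CC. White blood cell markers summed to 13.3 to 95.4 CPM in CC pools and 1.39 to 38.5 CPM in oocyte pools. LCP1 made up most of that oocyte sum (1.39 to 33.9 CPM). Theca markers summed to 109 to 1187 CPM in CC pools and 0 to 119 CPM in oocyte pools. INSL3 made up most of the CC theca sum (108 to 1162 CPM), with CYP17A1 at most 0.781 CPM and LHCGR at most 25.0 CPM in CC. The part of other cells in the values that follow was not tested. In bulk RNA, fewer cells of a type and less RNA per cell cannot be told apart.

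The first comparison asks how the family was divided between the oocyte and its CC. Ubiquitin-specific protease transcripts were abundant in both. Together they took 8029 to 9401 CPM of an oocyte library (median 8675 CPM, n = 16) and 3509 to 7079 CPM of a CC library (median 6047 CPM, n = 17), and the 2 ranges did not overlap. The sums are of CPM, scaled on total reads. They include USP6NL, which is not a protease and averaged 674 CPM in oocytes and 31.1 CPM in CC. Of the 48 genes, 45 were retained in oocytes (4 or more pools with 5 CPM or more) and 42 in CC (5 or more pools with 5 CPM or more), and the 42 were all among the 45. Of these 42, 21 were higher in oocytes and 17 higher in CC by limma's moderated test on log2(CPM + 1), at a Benjamini-Hochberg adjusted p under 0.05. The other 4 were not called, where 84.2% of all transcripts were called in either direction. Of the 8083 transcripts that both tables retained, 44.6% were higher in oocytes and 39.5% higher in CC, so the shares of the members lay near those of the transcriptome. All oocyte pools lay above all CC pools for 13 members, against 22.5% of all transcripts, and all CC pools lay above all oocyte pools for 4 members, against 12.7%. The median log2 difference, oocytes minus CC, was 0.34 over the members and 0.13 over all transcripts, and the latter was -0.21 with median-of-ratios scaling. The 2 tables were scaled separately, each library on its own total, so these differences compare shares of each library and not amounts per cell.

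**Figure D1:**
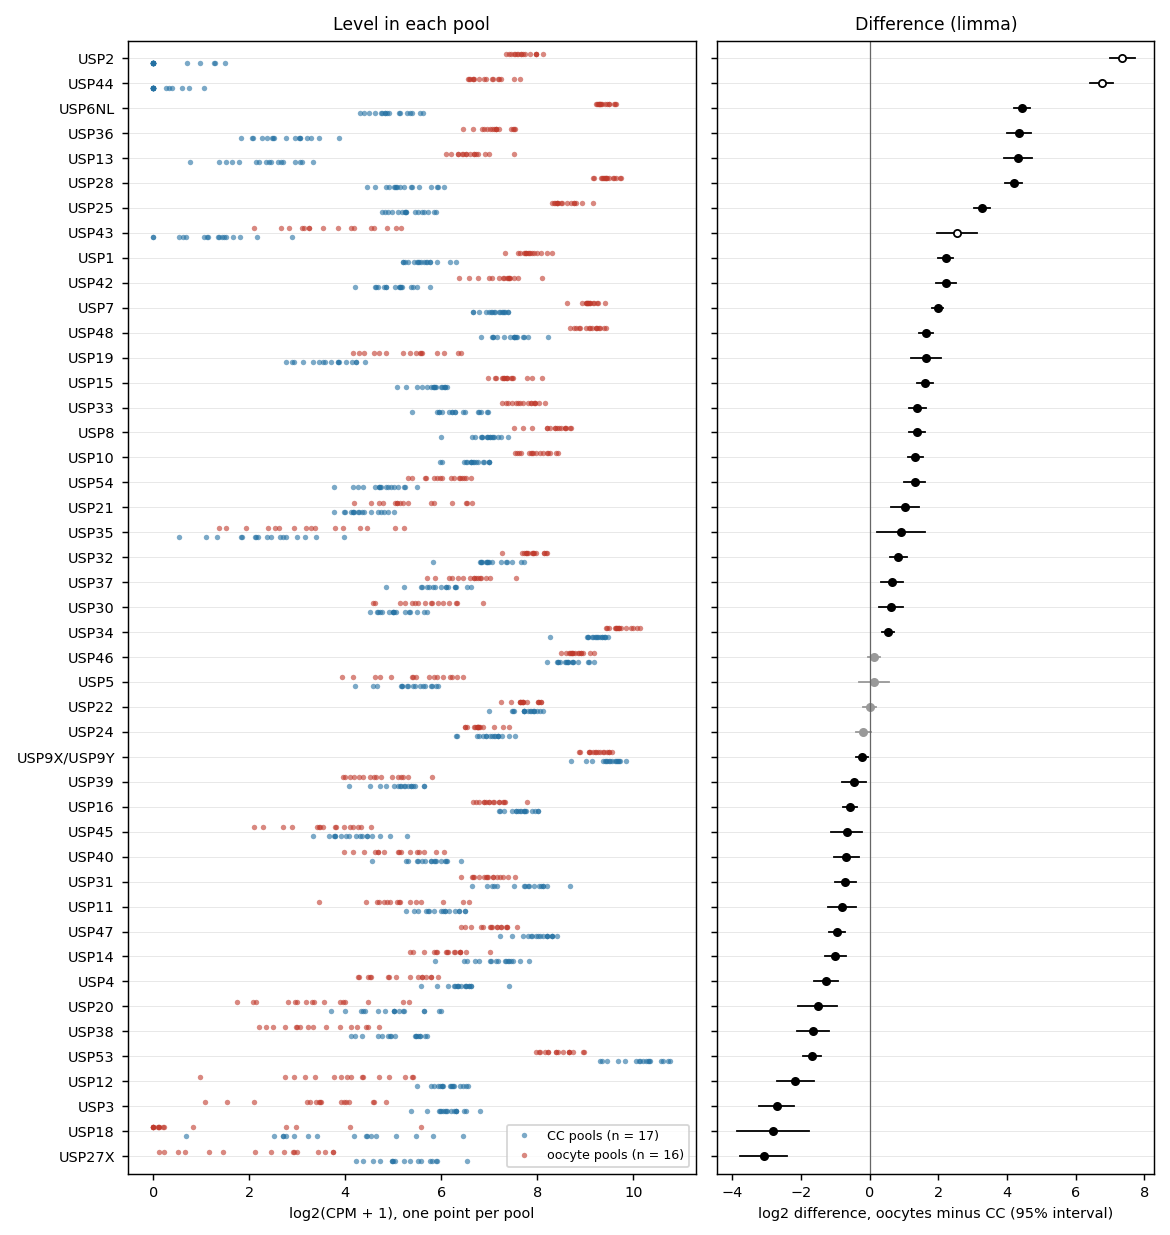
Left, the level of each retained member in every pool as log2(CPM + 1), with 16 oocyte pools in red and 17 CC pools in blue. Right, the log2 difference, oocytes minus CC, from limma with its 95% interval. Black marks have an adjusted p under 0.05, grey marks do not, and open circles are members retained in oocytes only. The members run from USP2 at the top (7.36) to USP27X at the bottom (-3.09).

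A pair of members was nearly absent from CC. USP2, a deubiquitinase known from the cell cycle and the circadian clock, measured 161 CPM in the lowest oocyte pool, 202 CPM in the median pool and 277 CPM in the highest, with a mean of 208 ± 33.9 CPM (SD, n = 16). In CC it had no read in 12 of 17 pools and at most 1.82 CPM. USP44, which acts on histone H2B and on the mitotic checkpoint, ranged from 93.1 to 199 CPM in oocyte pools (median 120 CPM) and from 0 to 1.09 CPM in CC, with 11 pools at 0. Over the 17 CC pools USP2 had 24 reads and USP44 had 13, and both lay far apart from the oocyte pools. USP43 was also retained in oocytes only, at 3.26 to 34.8 CPM (median 12.0 CPM) against 0 to 6.38 CPM in CC (median 1.53 CPM), and there the 2 ranges overlapped. The direction of these 3 members follows from their being retained in one table, so they are not counted above.

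Among the members retained in both cell types, 5 stood more than 3 log2 units higher in oocytes. USP6NL ranged from 596 to 797 CPM in oocyte pools (median 649 CPM) and from 18.8 to 48.1 CPM in CC (median 28.3 CPM). The mean was 674 ± 65.8 CPM in oocytes and 31.1 ± 8.87 CPM in CC, a log2 difference of 4.44 ± 0.11 (SE, adjusted p = 1.42e-31, limma) and a ratio of means of 21.7. No oocyte pool came near a CC pool. USP36, a nucleolar protease, measured 87.0 to 185 CPM in oocytes and 2.57 to 13.7 CPM in CC (log2 difference 4.35). USP13, which acts in endoplasmic reticulum quality control and autophagy, measured 67.3 to 182 CPM in oocytes and 0.693 to 8.97 CPM in CC (4.32). USP28, known from the DNA damage response, measured 570 to 851 CPM in oocytes and 20.9 to 65.0 CPM in CC (4.20). Its close relative USP25 showed the same order, with 316 to 568 CPM in oocytes and 26.2 to 58.0 CPM in CC (3.27). In all 5 the lowest oocyte pool exceeded the highest CC pool, and the largest adjusted p among them was 2.03e-22 for USP13 (limma).

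The next members by size of difference included enzymes of the nucleus and of DNA repair. USP1, which takes ubiquitin off FANCD2 and PCNA, ranged from 159 to 313 CPM in oocytes (median 225 CPM) and from 35.9 to 77.8 CPM in CC (median 46.5 CPM), a log2 difference of 2.22 ± 0.11 (SE). USP42 (2.21) ranged from 81.9 to 274 CPM in oocytes and from 17.3 to 53.1 CPM in CC, and USP7, which acts on p53 and its ligase MDM2, from 393 to 676 CPM and from 99.9 to 167 CPM (1.98). USP48, a histone H2A deubiquitinase, measured 408 to 689 CPM in oocytes and 113 to 296 CPM in CC (1.64). The pools of the 2 cell types did not overlap in any of these 4. USP19, which is anchored in the endoplasmic reticulum, had a log2 difference of the same size as USP48 (1.64 ± 0.22, SE, adjusted p = 6.20e-09, limma), but its oocyte pools spread from 16.7 to 84.4 CPM and reached into the CC range of 5.75 to 20.3 CPM. The remaining 11 members higher in oocytes had log2 differences from 0.54 (USP34) to 1.62 (USP15), and 4 of them, USP15, USP33, USP8 and USP10, did not overlap between cell types.

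On the CC side the differences were smaller in size. USP27X, which acts on histone H2B with the adaptors of the SAGA complex, ranged from 17.8 to 91.5 CPM in CC (median 36.4 CPM) and from 0.0845 to 12.5 CPM in oocytes (median 5.02 CPM), a log2 difference of -3.09 ± 0.33 (SE, adjusted p = 3.92e-11, limma). USP3, a deubiquitinase of histones H2A and H2B, measured 40.1 to 111 CPM in CC and 1.11 to 27.8 CPM in oocytes (-2.71). USP12 measured 43.8 to 92.4 CPM in CC and 0.947 to 41.8 CPM in oocytes (-2.16). USP53, a member found at tight junctions, measured 633 to 1730 CPM in CC and 251 to 503 CPM in oocytes. Its mean was 1162 ± 345 CPM in CC and 354 ± 78.9 CPM in oocytes (log2 difference -1.68 ± 0.13, SE, adjusted p = 4.40e-15, limma). In these 4 members every CC pool exceeded every oocyte pool.

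A further 6 of the 10 members with the largest differences towards CC overlapped between cell types. USP18, which takes the ubiquitin-like protein ISG15 off its substrates, had a log2 difference of -2.81 ± 0.51 (SE). USP38 stood at -1.65, USP20, known from the endoplasmic reticulum, at -1.52, and USP4 at -1.27. The proteasome-bound USP14 averaged 143 ± 43.3 CPM in CC and 70.4 ± 21.4 CPM in oocytes (-0.995 ± 0.16, SE), and USP47, which acts on DNA polymerase beta, averaged 261 ± 52.2 CPM and 135 ± 29.4 CPM (-0.95 ± 0.11, SE). The other 7 members higher in CC lay between -0.81 (USP11) and -0.22 (USP9X/USP9Y). For USP9X/USP9Y the adjusted p was 0.0227 (limma), with 718 ± 128 CPM in CC and 611 ± 86.7 CPM in oocytes.

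No difference between cell types was called for 4 members. USP22, the H2B deubiquitinase of SAGA, averaged 218 ± 35.6 CPM in oocytes and 218 ± 37.0 CPM in CC, and the 95% interval of its log2 difference ran from -0.19 to 0.20. USP46 averaged 449 ± 56.8 CPM in oocytes and 412 ± 77.0 CPM in CC (interval -0.04 to 0.31). USP5, which breaks down free ubiquitin chains, had a wider interval, from -0.31 to 0.56, and USP24 one from -0.41 to 0.04. For USP22, USP46 and USP5 the sign of the difference turned when libraries were scaled by the median of ratios in place of total reads (-0.37, -0.24 and -0.24), and with that scaling USP22 and USP46 were called higher in CC.

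By role, the members did not all fall on one side. Of the 6 members known from membranes and organelles, 5 were higher in oocytes (USP8, USP19, USP30, USP32 and USP33) and 1 in CC (USP20), with a median log2 difference of 1.11. Of the 5 DNA repair members, USP1, USP28 and USP48 were higher in oocytes and USP45 and USP47 in CC (median 1.64). Of the 6 chromatin members retained in both tables, USP7 and USP21 were higher in oocytes, USP3, USP16 and USP27X in CC, and USP22 was not called (median -0.29), while USP44 of the same list was retained in oocytes only. Of the 5 members known from TGF-beta and Wnt signalling, USP15 and USP34 were higher in oocytes and USP4, USP11 and USP9X/USP9Y in CC (median -0.22). Of the 3 members of nucleolus, stress granules and spliceosome, USP10 and USP36 were higher in oocytes and USP39 in CC (median 1.33). These medians stand beside 0.13 over all transcripts, and the lists are too short for more than a description.

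USP1, USP12 and USP46 share the activating partner WDR48, and were split 3 ways, with USP1 higher in oocytes, USP12 higher in CC and USP46 not called. WDR48 itself measured 195 ± 29.2 CPM in oocytes and 72.9 ± 14.4 CPM in CC (log2 difference 1.42). WDR20, which further activates USP12 and USP46, measured 300 ± 37.1 CPM in oocytes and 11.3 ± 3.84 CPM in CC (4.66), so that USP12 and WDR20 lay on opposite sides. For SAGA, the partner ENY2 was higher in oocytes (439 ± 134 CPM against 130 ± 29.7 CPM) and the adaptor ATXN7L3, which was not retained in oocytes, measured 28.8 ± 8.02 CPM in CC and 0.878 ± 1.64 CPM in oocytes. Over the list of partners, 6 of 8 retained in both tables were higher in oocytes and 2 in CC. A further list held deubiquitinases and related enzymes that the symbol rule did not take in. Of the 19 of them retained in both tables, 10 were higher in oocytes and 8 in CC, beside 44.6% and 39.5% of all transcripts, and a further 6 were retained in CC only and 1 in oocytes only. CYLD, which trims linear and Lys63-linked ubiquitin chains, had the largest difference among the 19, with 133 ± 48.7 CPM in CC and 3.58 ± 2.90 CPM in oocytes (-5.10).

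Related members can be set against each other within a library. For 12 pairs of related members, chosen after their values were seen, the log2 ratio of (CPM + 1) was taken in each pool as a description, with no test. For genes of a few CPM or less, such as USP27X in oocytes and USP13 in CC, this ratio still depends on the scaling through the added 1. USP15 and USP4 are paralogues, and their log2 ratio lay between 1.48 and 3.62 in oocyte pools and between -1.37 and -0.14 in CC pools. USP15 thus had the higher CPM of the pair in every oocyte pool and USP4 in every CC pool. The ratio of USP13 over USP5 ran from 0.0031 to 2.75 in oocyte pools and from -5.14 to -1.93 in CC pools. USP33 over USP20 (2.67 to 5.96 against 0.31 to 2.17), USP22 over USP27X (3.90 to 7.90 against 1.40 to 3.35) and USP54 over USP53 (-3.58 to -1.46 against -6.29 to -4.50) were likewise separate, as were USP15 over USP11 and USP36 over USP42. USP28 over USP25 overlapped (0.28 to 1.42 in oocyte pools, -1.27 to 1.22 in CC pools), and USP45 over USP16 had nearly the same median in both cell types, -3.34 and -3.39. Because reads of close paralogues can be split by the counting, the ratios within a pair are uncertain.

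**Figure D2:**
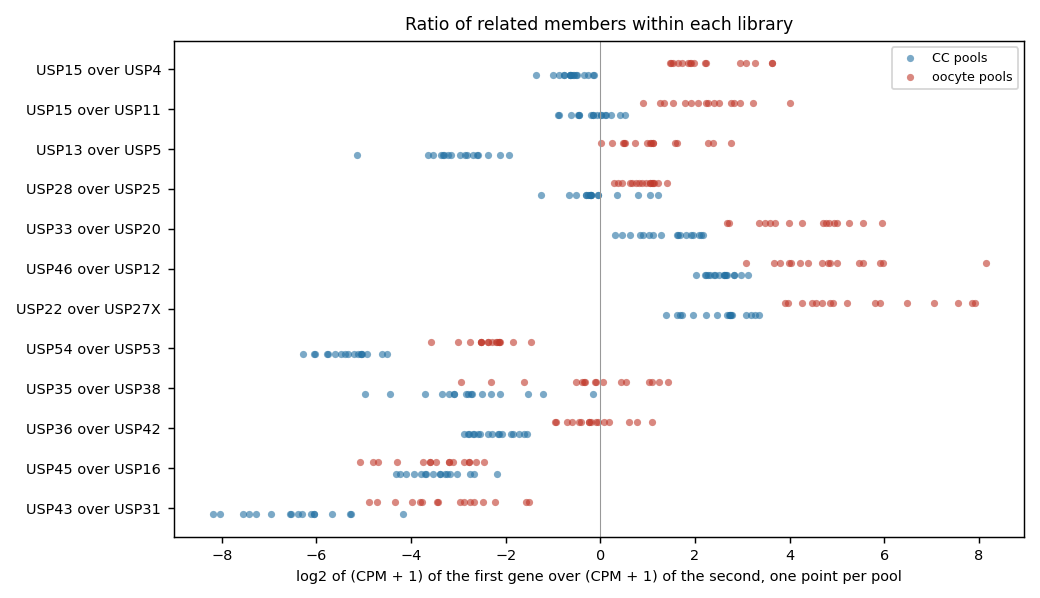
Log2 ratio of (CPM + 1) of the first gene over that of the second, for 12 pairs of related members, with one point per pool, oocytes in red and CC in blue. For USP15 over USP4 every oocyte pool lies right of 1.47 and every CC pool left of -0.13, and for USP45 over USP16 the 2 cell types lie on top of each other.

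The second set of comparisons asks whether the family differed with the follicle that the oocyte or its CC came from. Few members met the threshold between follicle classifications. The study asked for a nominal p of 0.01 or less from edgeR and DESeq2 alike. Here, on CPM, a transcript was called at that p in limma, and in oocyte comparisons with small pools it also had to pass without small replicate 3. No member of the 45 retained in oocytes was called between small and large, small and spontaneous, or large and spontaneous pools, where 0.655%, 0.774% and 0.943% of all 10076 transcripts were called. At an unadjusted p under 0.05 there were 2, 0 and 3 members (4.11%, 4.51% and 4.87% of all transcripts), and by edgeR and DESeq2 on recovered reads 1 member, USP18, was called between small and large oocyte pools and none in the other 2. In CC no member of 42 was called between small and large pools (0.813% of all 9712 transcripts) or between large and spontaneous pools (1.66%), with 1 and 2 members at an unadjusted p under 0.05 (4% and 7.07% of all transcripts), and edgeR and DESeq2 called none. Between small and spontaneous CC pools 2 members were called, USP6NL and USP46, both higher in spontaneous pools, where 2.38% of all transcripts were called and 2.28% were called higher in spontaneous pools. The share of members, 2 of 42, lay near that background, and 3 members had an unadjusted p under 0.05, against 8.55% of all transcripts. By the study's rule of both tools, applied to recovered reads, 1 of 45 members was called between small and large oocyte pools (USP18, against 0.486% of all transcripts) and 1 of 42 between small and spontaneous CC pools (USP6NL, against 1.26%). That rule called 0 members in small against spontaneous and large against spontaneous oocytes (0.516% and 0.834% of all transcripts) and in small against large and large against spontaneous CC (0.638% and 1.24%). USP18 met the oocyte filter only through large and spontaneous pools, which favoured its direction, so its call is no support for a change. In limma no member had an adjusted p under 0.05 in any of the 6 comparisons, and of all transcripts 0.0309% had one between small and spontaneous CC pools, 0.0103% between large and spontaneous CC pools and 0% in the other 4.

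USP6NL measured 18.8, 19.9, 23.6, 26.1, 27.4 and 29.2 CPM in the small CC pools and 33.9, 34.2, 39.6, 45.7 and 48.1 CPM in the spontaneous CC pools. Every spontaneous pool lay above every small pool. The means were 24.1 ± 4.15 CPM (SD, n = 6) and 40.3 ± 6.49 CPM (SD, n = 5), a log2 change of 0.72 ± 0.20 (SE) with p = 0.00252 and an adjusted p of 0.345 (limma), and an exact two-sided permutation test of the mean CPM gave p = 0.00433, which no split of 6 and 5 pools can undercut. The 6 large CC pools lay between, from 21.4 to 41.2 CPM, and overlapped both. In oocytes, where USP6NL was far higher, the 3 classifications overlapped fully (608 to 780 CPM in large, 596 to 797 CPM in small and 614, 621, 634 and 679 CPM in spontaneous pools).

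USP46, which acts on glutamate receptors in nerve cells, measured 295, 337, 344, 355, 394 and 397 CPM in the small CC pools and 427, 460, 531, 535 and 579 CPM in the spontaneous pools. These did not overlap either, as held for 1.16% of all transcripts in this comparison. The means were 353 ± 38.3 CPM and 506 ± 61.7 CPM, a log2 change of 0.52 ± 0.15 (SE) with p = 0.00334 and an adjusted p of 0.362 (limma), and the exact permutation test gave p = 0.00433. Large CC pools ranged from 344 to 430 CPM, and only the lowest spontaneous pool, at 427 CPM, fell within them (log2 change from large to spontaneous 0.36, p = 0.0166, exact permutation p = 0.00866). The median of all transcripts moved by 0.16 between small and spontaneous CC pools, so relative to it both changes were smaller. Scaled by the median of ratios, USP46 had a log2 change of 0.36 and no longer met the threshold, whereas USP6NL had one of 0.57 and still met it. Cumulus markers summed to 12927 to 23590 CPM in small and 18516 to 30717 CPM in spontaneous CC pools, and their part in these changes was not tested.

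In oocytes the same 2 members were not called between small and spontaneous pools. The log2 change from small to spontaneous was -0.11 for USP6NL (exact permutation p = 0.267) and -0.22 for USP46 (exact permutation p = 0.133). The change in CC exceeded that in oocytes by 0.83 ± 0.24 (SE) for USP6NL and by 0.74 ± 0.18 for USP46, with nominal p of 0.00118 and 0.000298 and adjusted p of 0.532 and 0.390 (limma, interaction term). These differences are on CPM, where the median of all transcripts moved by 0.16 in CC and by 0.05 in oocytes. Relative to that they were smaller. When oocyte and CC pools of the same classification and number were paired (16 pairs), the differences were 0.88 ± 0.27 and 0.72 ± 0.22, with an adjusted p of 0.856 for both (limma). Per the study, an oocyte pool was removed for low cDNA, and spontaneous oocyte pools were fewer than spontaneous CC pools. Spontaneous pools of the same number may therefore not come from the same complexes. By either test of the difference between cell types no member passed an adjusted p of 0.05 in any of the 3 contrasts. At a nominal p of 0.01 these were the only 2 of 42, in a contrast where 1.22% of all transcripts passed. Small against large and large against spontaneous gave 0 members, and 1.13% and 0.903% of all transcripts.

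**Figure D3:**
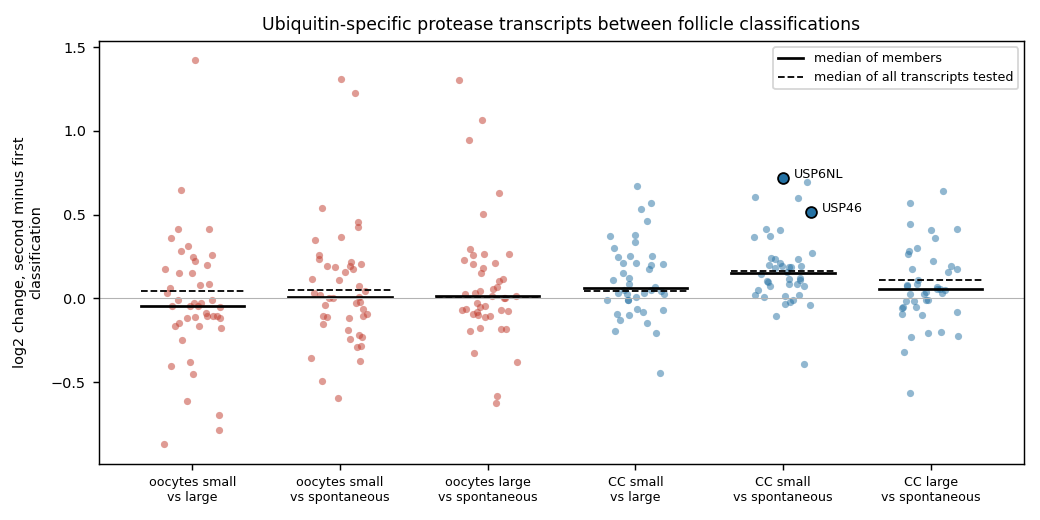
Log2 change of each retained member in the 6 comparisons, as the second minus the first classification, with 45 members in oocytes (red) and 42 in CC (blue). Solid lines are the median of the members and dashed lines that of all transcripts tested. The 2 outlined points, USP6NL (0.72) and USP46 (0.52) in small against spontaneous CC pools, are the members with a nominal p of 0.01 or less.

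**Figure D4:**
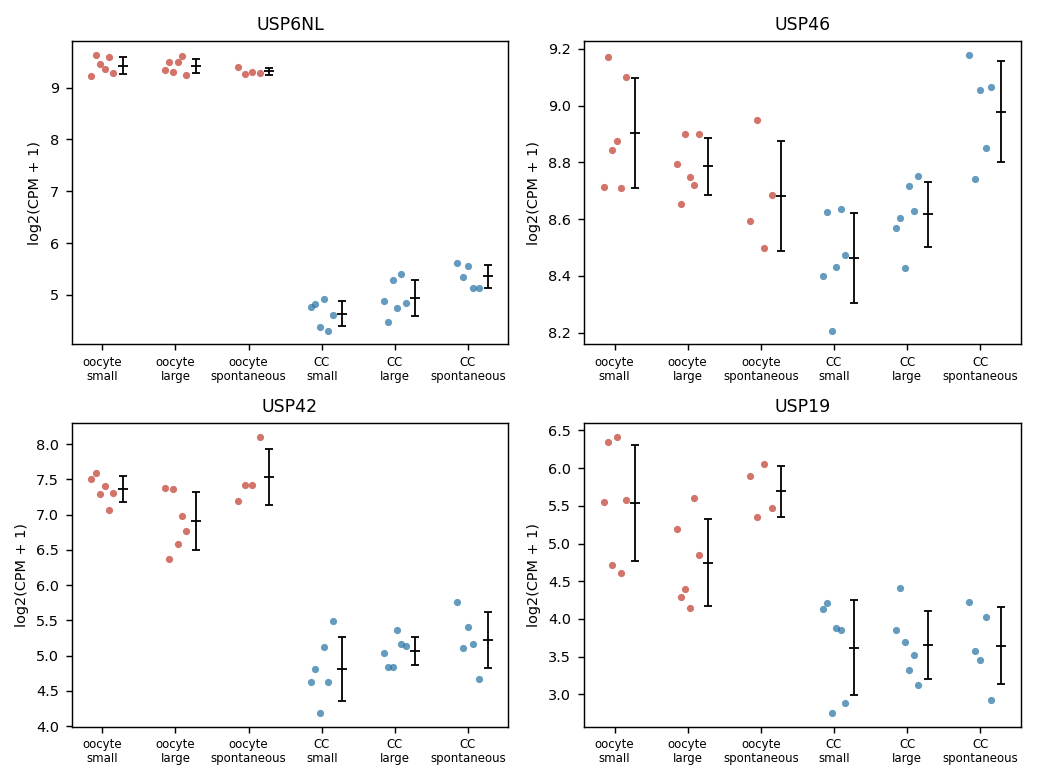
Level of 4 members in every pool as log2(CPM + 1) for the 3 classifications in oocytes (red) and CC (blue), with the mean and SD of each group in black. USP6NL and USP46 are higher in all spontaneous than in all small CC pools, and USP42 and USP19 have their lowest oocyte mean in large pools (123 and 27.7 CPM).

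The oocyte members with the smallest p were not called, and are given by their values. USP42 ranged from 132 to 192 CPM in small oocyte pools (median 163 CPM) and from 81.9 to 166 CPM in large pools (median 117 CPM), and measured 146, 170, 171 and 274 CPM in spontaneous pools. Large pools were the lowest on average, but overlapped both others. The log2 change was -0.45 from small to large (p = 0.0300, exact permutation p = 0.0433) and 0.63 between large and spontaneous pools (p = 0.0130, exact permutation p = 0.0476), with adjusted p of 0.997 and 0.968 (limma). USP19 had the same order, with 23.4 to 84.4 CPM in small, 16.7 to 47.6 CPM in large and 39.9, 43.3, 58.8 and 65.4 CPM in spontaneous oocyte pools. Its log2 change from large to spontaneous was 0.95 (p = 0.0190, exact permutation p = 0.0381). USP12 measured 19.8, 25.0, 29.2 and 41.8 CPM in spontaneous oocyte pools, 0.947 to 40.6 CPM in small and 5.74 to 36.7 CPM in large pools, a log2 change of 1.31 from small to spontaneous with p = 0.0530 (exact permutation p = 0.133) and of 1.07 from large to spontaneous with p = 0.0487 (exact permutation p = 0.0952). USP8, the endosomal protease that spares receptors from the lysosome, measured 182 to 379 CPM in small and 308 to 409 CPM in spontaneous oocyte pools (p = 0.0851, exact permutation p = 0.200).

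Among CC members that were not called, USP37, known from the cell cycle, ranged from 27.7 to 69.3 CPM in small and from 47.6 to 97.5 CPM in large pools (log2 change 0.57, p = 0.0321, exact permutation p = 0.0519). USP31 ranged from 98.3 to 277 CPM in small and from 136 to 407 CPM in large pools (p = 0.0713, exact permutation p = 0.154). USP20 measured 14.8, 19.6, 24.7, 31.1 and 31.2 CPM in spontaneous CC pools and 19.0 to 49.0 CPM in large pools (log2 change -0.56, p = 0.0494, exact permutation p = 0.0779). In each of these the pools of the 2 classifications overlapped. Outside the symbol rule, CYLD was called between small and spontaneous CC pools (log2 change 0.64, adjusted p = 0.418, limma). It was 1 of 25 listed deubiquitinases and related enzymes retained in CC, where 2.38% of all transcripts were called. Of the 8 partners retained in oocytes, 1, ATXN7, was called between small and spontaneous oocyte pools (log2 change 0.89, adjusted p = 0.915, limma), where 0.774% of all transcripts were called.

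USP18 was the most variable member in 5 of the 6 groups, with a coefficient of variation up to 180%. In CC pools it ranged from 0.613 to 86.9 CPM, and the 3 classifications overlapped fully. The 5 CC pools with the most USP18, at 23.7 to 86.9 CPM, were also the 5 with the most ISG15, the protein that USP18 removes and, like USP18, a product of interferon-induced genes. They held 17.97 to 73.3 CPM of ISG15, against 0 to 7.22 CPM in the other 12, and they came from all 3 classifications (small replicates 5 and 6, large replicates 1 and 5, spontaneous replicate 3). White blood cell markers summed to 13.3 to 58.4 CPM in these 5 pools and to 15.3 to 95.4 CPM in the other 12. In oocytes USP18 had no read in 5 of 16 pools and under 1 CPM in 7 others, and reached 46.9 CPM in large replicate 4, 16.04 CPM in large replicate 1, and 5.80 and 6.83 CPM in spontaneous replicates 2 and 3. ISG15 was at 0.404 and 0 CPM in the 2 large oocyte pools with the most USP18, so the 2 transcripts did not stand together there. Between small and large oocyte pools the log2 change of USP18 was 1.42 ± 0.88 (SE) in limma, where it was not called, and 5.75 in edgeR, where it was, and these 2 are the only pools of both groups above 1 CPM. USP18 met the oocyte filter only through these 2 pools and spontaneous replicates 2 and 3, so the filter favoured the direction of that call. The link between USP18 and ISG15 was seen in the values and was not tested.

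**Figure D5:**
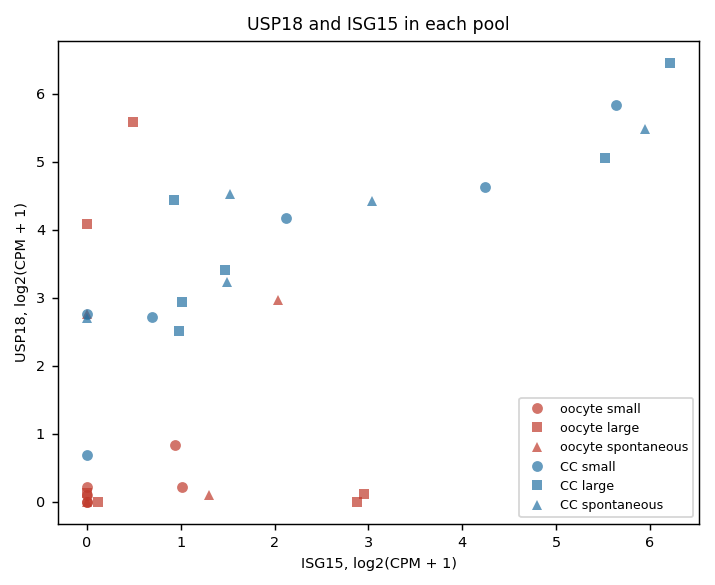
USP18 against ISG15 in each pool, both as log2(CPM + 1), with oocyte pools in red, CC pools in blue and the classification given by the shape. The 5 CC pools at the upper right have the most of both transcripts (USP18 23.7 to 86.9 CPM), and the oocyte pool with the most USP18 (46.9 CPM) lies at the left with 0.404 CPM of ISG15.

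At the other end, USP46 varied least in 3 of the 6 groups, small and large CC pools and large oocyte pools, with coefficients of variation of 10.8%, 7.84% and 6.90%. The median over the retained members was 18.6% to 32.4%, depending on the group. The summed level of all members was lowest in small CC replicate 3, at 3509 CPM, which was also the shallowest library with 1911600 reads. Without it, USP6NL and USP46 were still called between small and spontaneous CC pools (0.67 and 0.47), and 18 members in place of 17 were higher in CC than in oocytes.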

How the data were processed

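The authors aligned trimmed reads with Hisat2 (bovine build UMD3.1), used FeatureCounts with Ensembl genes, and deposited CPM as 1 table of 16 oocyte and 1 of 17 CC pools. Strand was not given in the sources used here. Each column summed to 1000000, and 100% of the values were whole multiples of 1 read (within 0.01 read), so reads could be recovered. There were 0 unused columns. Libraries of one group differed beyond sampling noise in every pair (chi-square of 13.4 or more per degree of freedom). No genome of this build was used, so no coordinates or sequences are given.

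Transcripts with 5 CPM in at least 4 oocyte or 5 CC pools were tested with limma 3.58.1 (trend, log2(CPM + 1), two-sided, no covariates) across all such transcripts, between 2 classifications (nominal p of 0.01 or less) and between cell types (adjusted p under 0.05). A fold on this scale understates the change of low transcripts. edgeR 4.0.16 and DESeq2 1.42.0 were run on recovered reads as alternatives, in R 4.3.3, and exact permutation tests with scipy 1.17.1. On simulated data limma recovered 100% of changed transcripts in each comparison between classifications and called 0.81 to 1.22% of unchanged ones. The planted changes were larger than any limma log2 change of a member between classifications. They were set only in transcripts above a fixed level, with the same spread for all. The 100% therefore does not measure the chance of calling the smaller or more variable changes of the members. Other alternatives were the pseudocount, the filter, the scaling, a single fit of all 3 classifications, CPM without mitochondrially encoded genes, a replicate block and each pool left out in turn. The rule of edgeR and DESeq2 together, and the paired test of class effects, were added after seeing the data.

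The members and the lists of roles, partners and markers were chosen with earlier results of these data known. Members named are those called in any comparison, the 2 with the smallest p in each, the 10 with the largest difference towards each cell type, the 3 with the smallest, and examples of each role.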

Additional observations from a re-analysis of the deposited data

Results flagged for a closer look

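Of 177 combinations of a named or listed member and a group, 14 had a pool that stood apart from the others of its group on the log2(CPM + 1) scale by Dixon's criterion, which chance alone meets in about 1 group in 20. In oocyte pools, USP1 was high in small replicate 1 (313 CPM, others 199 to 235 CPM) and USP44 in small replicate 4 (199 CPM, others 93.1 to 121 CPM). USP5 was low in small replicate 5 (16.9 CPM, others 52.2 to 85.8 CPM), and without that pool it was called between small and large oocyte pools. Large replicate 5 was low for both USP47 (83.8 CPM, others 132 to 165 CPM) and USP7 (393 CPM, others 521 to 614 CPM), and large replicate 6 was high for USP22 (259 CPM, others 199 to 218 CPM). USP53 was low in spontaneous replicate 1 (262 CPM, others 401 to 430 CPM).

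In CC pools, USP14 was low in large replicate 2 (57.3 CPM, others 129 to 198 CPM) and USP4 high in large replicate 5 (169 CPM, others 76.2 to 96.6 CPM). USP22 was low in small replicate 3 (127 CPM, others 210 to 277 CPM), the shallowest library. On few reads, USP18 stood out in oocyte small replicate 3 (0.783 CPM, 6 reads), USP2 in CC small replicate 4 (1.82 CPM, 6 reads) and USP26 in oocyte spontaneous replicate 2 (1.01 CPM, 15 reads). USP26 was also high in oocyte small replicate 5 (13.5 CPM), where the others of the group had at most 0.892 CPM.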

How the results depend on the processing

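Counts of members between classifications rest on 0 to 2 calls and moved with single pools and settings. Small against large oocytes gave 1 with edgeR and with DESeq2 (USP18) and 0 to 1 with a pool left out (USP5, without small replicate 5). Large against spontaneous oocytes gave 1 in one fit of all 3 classifications (USP42), 1 with the replicate block (USP19) and 0 to 1 with a pool left out (USP42 without large replicate 1, large replicate 3 or spontaneous replicate 1, and USP19 without large replicate 5). Small against spontaneous CC gave 1, USP6NL, with median-of-ratios scaling, CPM without mitochondrially encoded genes, edgeR, DESeq2 and the replicate block, 3 with no filter (USP48 added) and 1 to 3 with a pool left out (USP46 lost without spontaneous replicate 3, USP27X added without spontaneous replicate 2). Large against spontaneous CC gave 1 with no filter (USP46) and 0 to 1 with a pool left out (USP20 without large replicate 1, USP27X without spontaneous replicate 2). The causes were not tested.

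Between cell types 21 and 17 members were higher in oocytes and in CC. Median-of-ratios scaling gave 17 and 20, as it moved the median of all transcripts from 0.13 to -0.21. DESeq2 gave 18 and 20, no filter 24 and 18, and pools left out 21 and 16 to 18. Signs turned for 3 members that were not called in the first place. USP22 went to -0.37 (median of ratios), -0.24 (without mitochondrially encoded genes), -0.12 (edgeR), -0.38 (DESeq2), -0.014 (replicate block) and -0.045 to 0.036 with a pool left out. USP5 went to -0.24, -0.11 and -0.12 (DESeq2), and USP46 to -0.24, -0.11 and -0.25 (DESeq2).

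Pools with the same number did not deviate together beyond 0.1 in every pair (correlations -0.19 to 0.22 between classifications, and between oocytes and CC 0.014 to 0.077 in the 6 small pairs and -0.04 to 0.047 in the others), so the numbers were not taken as pairs, although oocytes and CC came from matching complexes. Oocyte and CC pools of different number ran from -0.076 to 0.041 in small and from -0.063 to 0.072 in the others. The same-numbered small pairs were all above 0, and whether the numbers match there was not tested. With the replicate number as a block the counts between cell types were again 21 and 17. They were the same with the spontaneous oocyte numbers raised by 1, as if the oocyte pool removed in the study had been the first spontaneous one. That choice was made after seeing the data, as was the paired test of the difference in class effect, which again called 0 members. The 3 reads that a count of 0 allows are 0.52 to 1.57 CPM in CC, depending on the library.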

Other observations

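The 3 members retained in neither table are given here by value. USP26, a gene known from the testis, was listed in oocytes only and had no read in 11 of 16 pools, with at most 13.5 CPM, in small replicate 5. USP49, a histone H2B deubiquitinase, measured 0 to 12.7 CPM in oocyte pools (median 2.21 CPM) and 0 to 6.41 CPM in CC pools (median 1.84 CPM). USP50, held to be inactive, had no read in 15 of 16 oocyte pools and 2 reads in the other, and 0 to 2.84 CPM in CC pools. Its neighbour in the RefSeq annotation is USP8, another member, and reads shared between them cannot be told apart.

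Among genes that encode ubiquitin itself, UBB and RPS27A lay on opposite sides. UBB, a polyubiquitin gene with 2 identifiers, measured 1322 ± 186 CPM and 189 ± 44.2 CPM in oocytes and 478 ± 77.1 CPM and 83.6 ± 19.5 CPM in CC (SD). RPS27A, which encodes ubiquitin fused to a ribosomal protein, measured 752 ± 124 CPM in CC and 191 ± 65.4 CPM in oocytes. For these 3 identifiers the pools of the 2 cell types did not overlap, and counts of these genes can share reads with near-identical copies. The activating enzyme UBA1 was higher in oocytes by 0.42 on the log2 scale, and UBA6 was not called (0.27).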
